A study of Mus musculus with 26 samples.

Results

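The genes examined here encode respiratory complexes II to V of the mitochondrial inner membrane, with their assembly factors and cytochrome c. They were chosen by symbol: the succinate dehydrogenase subunits Sdha to Sdhd with the Sdhaf assembly factors, symbols that begin with Uqcr, Uqcc, Cox4 to Cox8, Cox10 to Cox20 or Atp5, the mtDNA symbols that begin with mt-Co or mt-Atp, and Cyc1 and Cycs. Names with -ps were left out, which removed 10 of 83 matching symbols. The rule found 73 of the 55487 genes in the table of counts. Complex II had 8 of them, complex III 12, cytochrome c 1, complex IV 32 and complex V 20, and 68 were encoded in the nucleus and 5 in mtDNA. *Cox20b* and *Cox6c2* are annotated as processed pseudogenes. The mtDNA gene of complex III is spelled mt-Cytb in the table and falls outside the rule, so it is shown beside the members and not counted with them.

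RNA was measured by 3′ mRNA sequencing of a piece of the proximal small intestine (SI) of 26 mice. All mice carried fl/fl alleles of the targeted gene, were 8 to 12 weeks old and received tamoxifen on 5 days, and knockout mice (labelled tg) also carried a tamoxifen-inducible Cre under the villin promoter, which is active in intestinal epithelial cells (IECs). Control mice (labelled wt) lacked the Cre, so an effect of the active Cre itself cannot be told apart from the loss of the targeted gene. There were 7 knockout and 7 control mice 3 days after the last injection, and 6 and 6 mice 7 days after it.

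Complex II oxidizes succinate, complex III passes electrons from ubiquinol to cytochrome c, complex IV passes them on to oxygen, and complex V uses the resulting proton gradient to make ATP. Complex II is encoded wholly in the nucleus, whereas complexes III, IV and V each join nuclear subunits to subunits made inside the mitochondrion from mtDNA. Enterocytes, the absorptive cells of the SI, are rich in mitochondria.

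Each library held 3720168 to 6338016 counts. Transcripts of stomach or pancreatic acinar cells summed to more than 5000 CPM in 8 libraries (4 control and 2 knockout libraries at 3 days, 1 and 1 at 7 days). The tissue holds epithelium, lamina propria and muscle, and in such bulk samples fewer cells of a type and less RNA per cell cannot be told apart. Levels are given in CPM, counts scaled to the library total. Fold changes are knockout over control on the log2 scale with their standard error (SE), and adjusted p-values are from the quasi-likelihood test of edgeR across all genes.

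Of the mtDNA members only *mt-Co1*, the catalytic subunit of complex IV, could be measured. It held 536708.5 counts over the 26 libraries, against 43 for *mt-Co3*, 26 for *mt-Atp6*, 21 for *mt-Co2* and 2 for *mt-Atp8*. *mt-Cytb*, the cytochrome b of complex III, held 2830872 counts. Of the 6 mtDNA messages near 0, 5 had a nuclear copy over nearly their whole length. *mt-Co2*, *mt-Co3* and *mt-Atp6* matched annotated pseudogenes on chromosome 1 (Gm28661, Gm28437 and Gm10925) at an identity of 100% over 681 of 684, 783 of 784 and 678 of 681 bases, and those pseudogenes held 9, 22 and 18 counts. *mt-Nd3* and *mt-Nd4l* of complex I, covered over 99.1% and 99.0% of their length, held 10 and 1 counts. *mt-Atp8* had no such copy among the annotated transcripts and was also near 0. *mt-Co1* had a copy only from base 1063 to its last base, 1545, *mt-Nd4* of complex I had one over 63.6% of its length and held 3490518 counts, and *mt-Cytb* had none. The authors kept alignments of high mapping quality only, and the part of these copies in the low counts was not tested. The values of *mt-Co2*, *mt-Co3*, *mt-Atp6* and *mt-Atp8* are therefore given as counts, with no fold change. Where on *mt-Co1* its counted reads lie is not given in the table.

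The sequences below are stretches of 60 bases of 3 mtDNA messages (GENCODE transcripts, GRCm38, plus strand of chromosome M). The 3 messages have a near-identical nuclear copy over part, nearly all and none of their length. Capitals mark bases that lie in a copy on chromosome 1. For *mt-Co1* (chrM:6360-6419) the stretch spans the place where the copy begins, and for *mt-Co2* (chrM:7637-7696) and *mt-Cytb* (chrM:15229-15288) it is the end of the message.
mt-Co1: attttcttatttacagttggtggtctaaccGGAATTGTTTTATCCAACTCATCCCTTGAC
mt-Co2: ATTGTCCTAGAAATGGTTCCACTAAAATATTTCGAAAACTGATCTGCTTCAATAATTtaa
mt-Cytb: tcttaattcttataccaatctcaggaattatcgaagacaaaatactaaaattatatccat
The *mt-Co2* stretch lies in the copy up to base 681 of 684, whereas no base of the *mt-Cytb* stretch does.

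**Figure D1:**
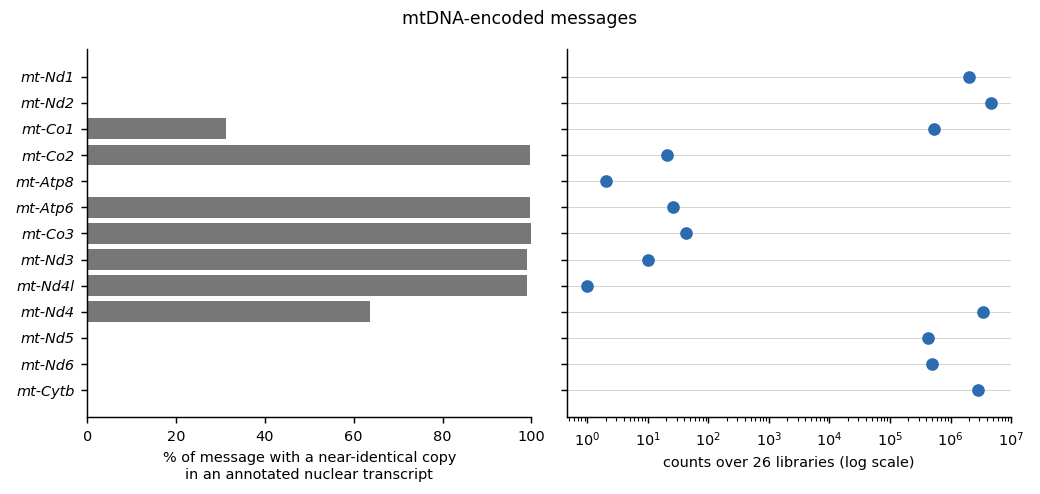
For the 13 mtDNA-encoded messages, the left panel gives the percent of the length that has a near-identical copy (identity of at least 98% over at least 50 bases) in an annotated nuclear transcript, and the right panel the counts over 26 libraries on a log scale. The 5 messages covered over at least 99.0% of their length, and *mt-Atp8*, held 1 to 43 counts, and the other 7 held 422503 counts or more.

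*mt-Co1* rose in knockout mice on both days, more at 7 days than at 3 days. At 3 days it was at 1577 CPM in the lowest, 1985 in the median and 2184 in the highest control mouse, and at 2271, 3854 and 4570 CPM in knockout mice. At 7 days it was at 1857, 2097 and 2393 CPM in control mice and at 7190, 7809 and 9798 CPM in knockout mice. All knockout mice lay above all control mice on each day. The log2 fold change was 1.0 at 3 days (SE 0.17, adjusted p = 0.00443) and 1.93 at 7 days (SE 0.11, adjusted p = 1.56e-10). The difference between the days, 0.96 (SE 0.21), passed the test of the interaction (adjusted p = 0.00151). *mt-Cytb* went from 12821, 13465 and 15901 CPM in control mice to 13911, 22496 and 25245 CPM in knockout mice at 3 days, where the groups overlapped. At 7 days it went from 11497, 15000 and 15863 CPM to 30636, 33190 and 38844 CPM, with no overlap. Its log2 fold change was 0.73 at 3 days (SE 0.16, adjusted p = 0.0336) and 1.25 at 7 days (SE 0.10, adjusted p = 1.71e-08), and the difference between the days, 0.55 (SE 0.20), missed the threshold (adjusted p = 0.0597). The 3-day call of *mt-Cytb* was lost in 11 of the 14 fits that left out 1 mouse, with adjusted p up to 0.0814, and in the fit without the 8 libraries with stomach or pancreatic transcripts (0.71, adjusted p = 0.146).

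The 4 members near 0 gave few counts in all groups. At 7 days *mt-Co3* summed to 23 counts over the 6 knockout mice and 1 over the 6 control mice, *mt-Atp6* to 12 and 5, *mt-Co2* to 10 and 2, and *mt-Atp8* to 2 and 0. At 3 days the sums of knockout and control mice were 7 and 12 for *mt-Co3*, 6 and 3 for *mt-Atp6*, and 3 and 6 for *mt-Co2*, and both were 0 for *mt-Atp8*. None of these passed the test where it could be run. The other mtDNA messages with counts, those of complex I, did not move as 1 block at 7 days: *mt-Nd1* (1.23, SE 0.12, adjusted p = 2.13e-07) and *mt-Nd5* (0.76, SE 0.11, adjusted p = 1.20e-05) rose, whereas *mt-Nd4* (0.24, SE 0.13, adjusted p = 0.151), *mt-Nd6* (0.19, SE 0.17, adjusted p = 0.421) and *mt-Nd2* (-0.21, SE 0.10, adjusted p = 0.112) did not pass.

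**Figure D2:**
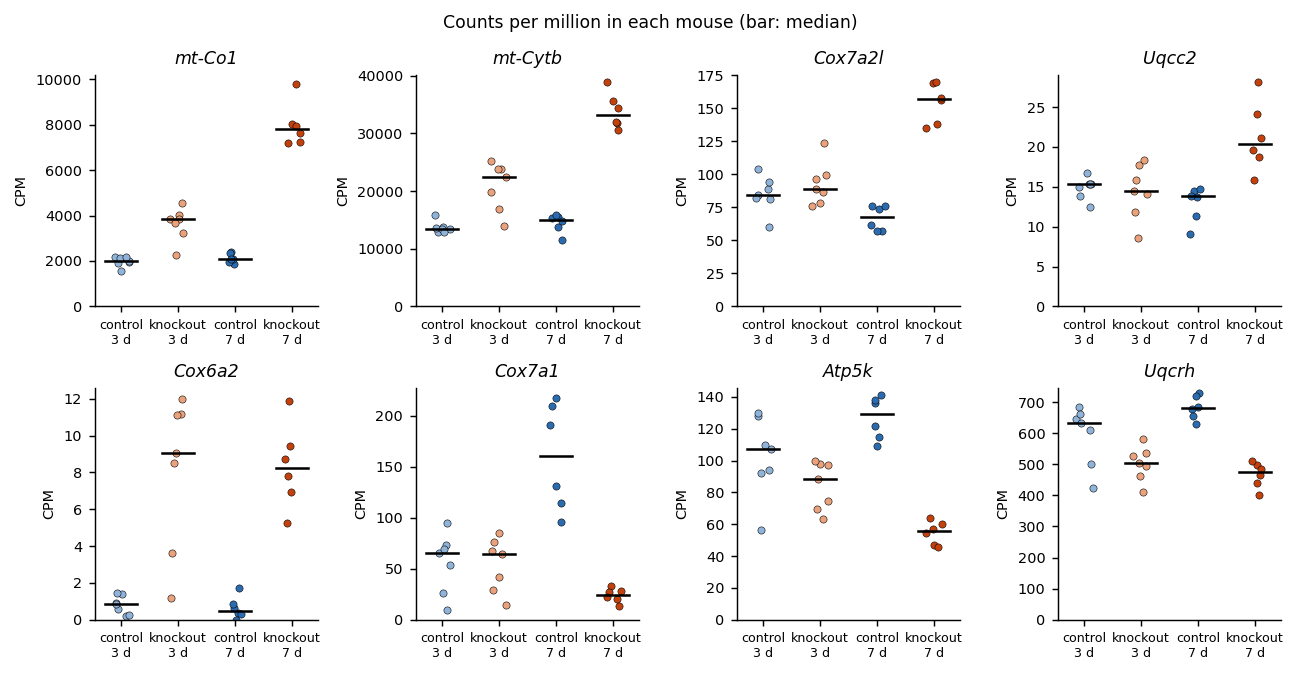
CPM in each mouse (points) for 7 members and *mt-Cytb*, with the group median as a bar and a y axis from 0, for control and knockout mice at 3 and 7 days. *mt-Co1*, *mt-Cytb*, *Cox7a2l*, *Uqcc2* and *Cox6a2* were higher in all 6 knockout mice than in all 6 control mice at 7 days, and *Cox7a1*, *Atp5k* and *Uqcrh* lower.

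Set against the nuclear members of the same library, the mtDNA members (nearly all *mt-Co1*) gave 11.8 counts per 100 nuclear-member counts in the lowest, 17.2 in the median and 24.2 in the highest control mouse at 3 days, and 25.2, 31.4 and 44.2 in knockout mice. At 7 days the ratio was 10.1, 12.0 and 14.8 in control mice and 42.1, 43.2 and 56.8 in knockout mice. The genotypes did not overlap on either day. This ratio rests almost wholly on *mt-Co1*. All genes of mtDNA, ribosomal RNAs included, held a median of 19.9% of counts in control and 24.2% in knockout mice at 3 days. At 7 days these medians were 22.7% and 25.4%. The nuclear members together held 0.781% to 1.5% of all counts in control mice and 0.724% to 1.51% in knockout mice at 3 days, and 1.51% to 1.98% against 1.48% to 1.87% at 7 days, so the genotypes overlapped on both days. These ratios and sums are descriptions, with no test.

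Among all members, 2 of 67 tested passed at 3 days, both higher, beside 1.43% of the 20760 genes tested that were called, 1.11% higher and 0.323% lower. These were *mt-Co1* and *Cox6a2*. No member was lower at 3 days by edgeR or by DESeq2, and 6 members had an unadjusted p under 0.05. The median change of the members was 0.20, as was that of the nuclear members alone, against -0.03 over all genes tested. The nuclear median fell to 0.06 with the stomach and pancreatic levels added to the model and to 0.07 without the 8 libraries with those transcripts. At 7 days, 17 of 67 tested members were higher and 11 lower, beside 38.5% of the 20259 genes tested that were called, 19.7% higher and 18.8% lower. The shares of members, 25.4% and 16.4%, were thus near those of all genes. The median change of the members was 0.11, against -0.02 over all genes tested. The lists of other cell types moved on that day too: 14 of 15 enterocyte genes were lower, 9 of 10 genes of stem and dividing cells were lower (summed 806 to 969 CPM in control and 196 to 301 CPM in knockout mice), and of 9 lymphocyte genes tested 5 were lower and 2 higher. Their part in the members' changes was not tested. With the size factors of DESeq2, 12 members were higher and 12 lower. With all 26 libraries in 1 fit, 10 were higher and 6 lower. The shares over all genes given above are those of the main fit and do not apply to these settings. On each day 6 members did not pass the filter on low counts: *Cox20b*, *Cox7b2*, *Cox8c*, *mt-Co2* and *mt-Atp8* on both days, *mt-Atp6* at 3 days and *mt-Co3* at 7 days.

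By role, the 7-day calls of the nuclear members were divided. Of 46 nuclear subunits tested, 8 were higher (17.4%) and 9 lower (19.6%), near the shares over all genes tested, 19.7% and 18.8%. Of 17 assembly factors 8 were higher (47.1%) and 2 lower (11.8%). By complex, 1 member was higher and 2 were lower of 8 in complex II, 5 and 2 of 12 in complex III, 10 and 3 of 27 in complex IV and 1 and 4 of 19 in complex V. The median changes were -0.11, 0.22, 0.22 and 0.08, against -0.02 over all genes tested. With the stomach and pancreatic levels added to the model, the median was 0.12 for complex IV, -0.03 for complex V and 0.02 for all nuclear members (0.10 before). Whether these groups of genes differ from each other was not tested. The last 300 bases of 13 of the 73 members held a near-identical stretch of another gene, so reads there could fit both genes. The authors kept alignments of high mapping quality only, and the part of these stretches in the counts was not tested.

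**Figure D3:**
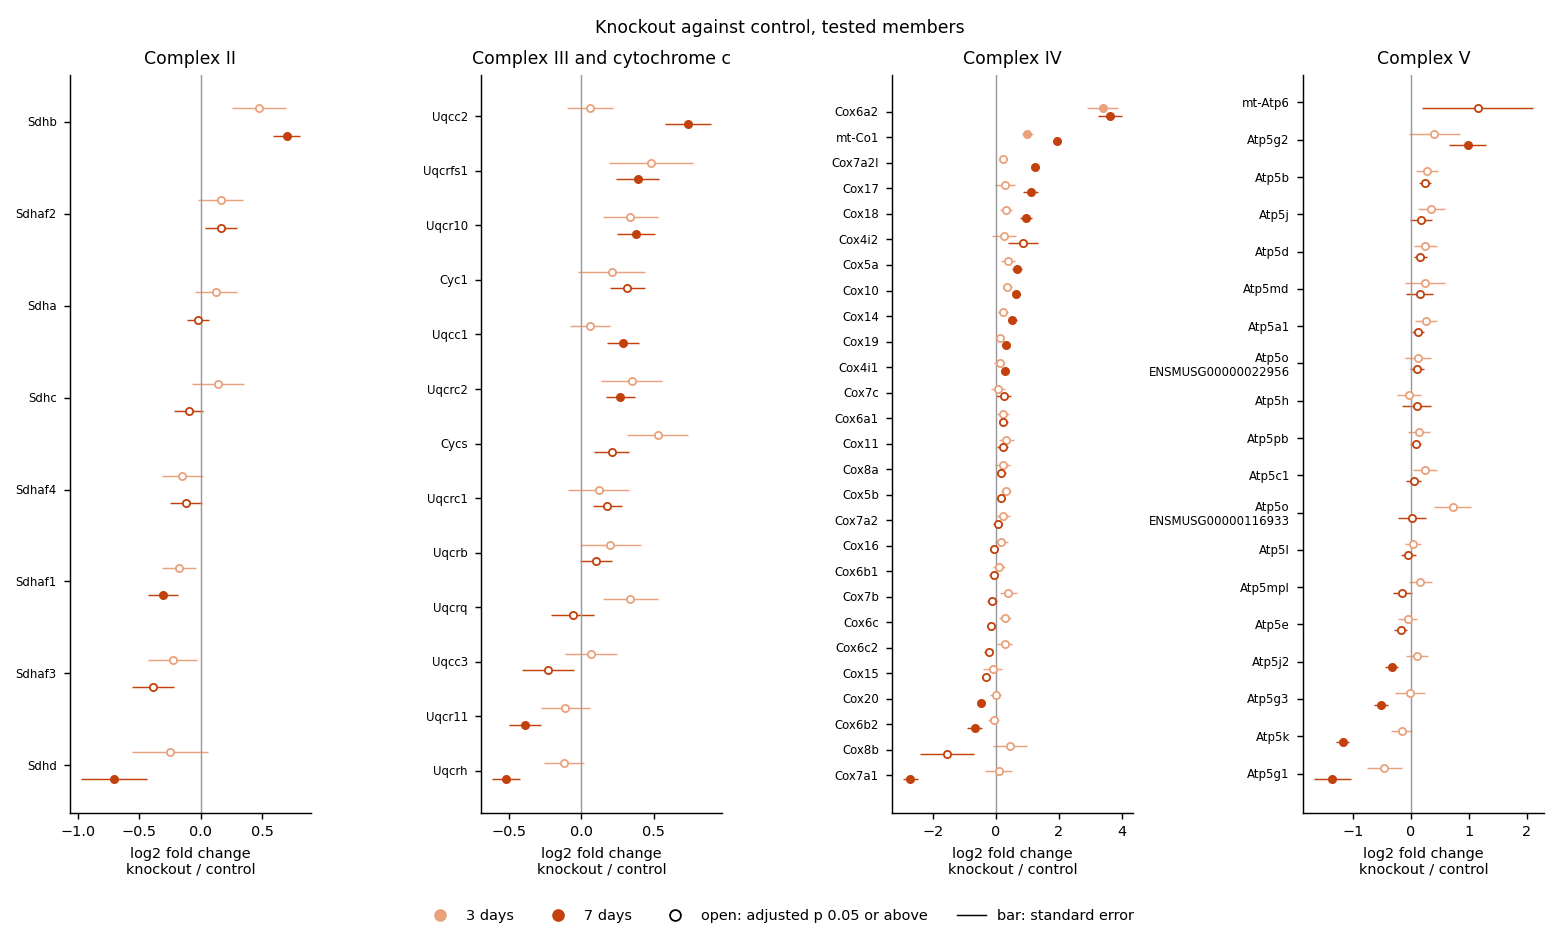
Log2 fold change of knockout over control for every member tested at 7 days, by complex, at 3 days (light) and 7 days (dark), with bars of 1 SE on x axes that differ in range. Filled points passed an adjusted p of 0.05, which held for *mt-Co1* and *Cox6a2* at 3 days and for 28 members at 7 days.

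Of the 4 subunits of complex II, the 1 complex with no mtDNA subunit, 1 was called higher and 1 lower at 7 days. Over all genes tested, 19.7% were higher and 18.8% lower. *Sdhb*, the iron-sulfur subunit, was at 203, 260 and 280 CPM (lowest, median and highest) in control mice and at 336, 407 and 459 CPM in knockout mice at 7 days. The groups did not overlap, and the change was 0.70 (SE 0.11, adjusted p = 6.94e-05). *Sdha*, the flavoprotein that holds the active site, was at 261, 274 and 303 CPM in control mice and at 237, 272 and 288 CPM in knockout mice (-0.02, SE 0.09, adjusted p = 0.904). For *Sdha* the groups overlapped almost wholly. The membrane anchor *Sdhd* fell from 8.47, 15.3 and 21.9 CPM to 4.32, 8.46 and 14.2 CPM, with overlap (-0.71, SE 0.27, adjusted p = 0.0448). The assembly factor *Sdhaf1* was lower too (-0.31, SE 0.12, adjusted p = 0.0405). Both were named after their values were seen, and their calls were not followed with 1 mouse left out. The anchor *Sdhc* was at -0.10 and did not pass. At 3 days no member of complex II passed, and *Sdhb* was at 0.47 (SE 0.22, adjusted p = 0.349).

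In complex III, too, nuclear subunits changed in both directions at 7 days, 3 of 9 higher and 2 lower, and 2 of 3 assembly factors were higher. Over all genes tested, 19.7% were higher and 18.8% lower. *Uqcr10* rose from 248, 314 and 384 CPM in control mice to 319, 409 and 462 CPM in knockout mice at 7 days (0.38, SE 0.13, adjusted p = 0.0265), with overlap. *Uqcrfs1*, the Rieske iron-sulfur protein, rose from 202, 271 and 377 to 315, 348 and 422 CPM (0.39, SE 0.15, adjusted p = 0.0444), also with overlap. *Uqcrh*, the hinge protein, fell from 631, 682 and 730 CPM to 402, 476 and 511 CPM (-0.52, SE 0.10, adjusted p = 0.000252). *Uqcr11* fell from 106, 118 and 148 CPM to 81.8, 90.9 and 103 CPM (-0.39, SE 0.11, adjusted p = 0.00578). For both falls all knockout mice lay below all control mice. A processed pseudogene, Gm16418, matched *Uqcr11* over 111 bases of its 3′ end, so reads there could fit both genes. Its part in the counts of *Uqcr11* was not tested.

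The assembly factor *Uqcc2*, which is needed for the making of cytochrome b, rose from 9.12, 13.8 and 14.7 CPM to 15.8, 20.3 and 28.1 CPM at 7 days (0.74, SE 0.16, adjusted p = 0.0011). Its 7-day groups did not overlap, and at 3 days it was at 0.06 (SE 0.16, adjusted p = 0.91). *Cycs*, cytochrome c, was at 63.2, 69.9 and 84.0 CPM in control mice and at 65.2, 78.0 and 110.0 CPM in knockout mice at 7 days. It passed on neither day, at 0.53 (SE 0.21, adjusted p = 0.266) and 0.21 (SE 0.12, adjusted p = 0.18). The calls of *Uqcrfs1* and *Uqcr10* were lost in 9 and 5 of the 12 fits without 1 mouse (adjusted p up to 0.148 and 0.0974).

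Complex IV held the largest rises and the largest fall among the members. Several of its nuclear subunits exist as a common form and a form of heart, muscle or other tissues, and the tissue forms moved in opposite directions. *Cox6a2* (chr7:128205435-128206387, minus strand, GRCm38), the heart and muscle form of subunit 6a, was at 0.206, 0.832 and 1.46 CPM in control mice at 3 days and at 1.16, 9.06 and 12.0 CPM in knockout mice. At 7 days it was at 0, 0.495 and 1.73 CPM in control mice and at 5.25, 8.27 and 11.9 CPM in knockout mice. It stayed at low levels throughout, with 1 knockout mouse inside the control range at 3 days and no overlap at 7 days. The changes were 3.39 at 3 days (SE 0.48, adjusted p = 0.00113) and 3.63 at 7 days (SE 0.39, adjusted p = 5.34e-07). The common form *Cox6a1* was at 1097, 1297 and 1702 CPM in control mice and at 1224, 1627 and 1729 CPM in knockout mice at 7 days (0.24, SE 0.14, adjusted p = 0.174).

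*Cox7a1*, the heart and muscle form of subunit 7a, changed the opposite way. It was at 95.8, 161 and 217 CPM in control mice and at 13.9, 24.5 and 33.1 CPM in knockout mice at 7 days, with no overlap (-2.72, SE 0.24, adjusted p = 5.04e-08). At 3 days it was at 9.68, 65.4 and 94.9 CPM in control mice and at 14.3, 64.9 and 84.7 CPM in knockout mice (0.09, SE 0.42, adjusted p = 0.955). The common form *Cox7a2* was at 446, 512 and 751 CPM against 480, 571 and 657 CPM at 7 days (0.06, SE 0.15, adjusted p = 0.815).

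Apart from *Acta1*, the markers of striated muscle were at no more than 13.9 CPM in any library. The list of 14 genes summed to 12.1 to 14.7 CPM in control mice and 91.2 to 126 CPM in knockout mice at 7 days, and to 15.3 to 23.3 against 18.6 to 62.3 CPM at 3 days. *Acta1* alone reached 82.6 to 121 CPM in knockout mice at 7 days (4.78, SE 0.16, adjusted p = 2.54e-13). It was the 1 gene of the list called higher on either day, of 8 tested at 3 days and 7 at 7 days, and 2 were lower at 7 days. Of the other genes of the list, *Ckm* reached at most 13.9 CPM in any library, *Myl1* 8.93, *Tnni2* 4.13 and *Mylpf* 2.84 CPM. *Actc1* reached 2.01, *Tnnt3* 1.64, *Myh7* 1.39 and *Myh6* 1.09 CPM, and *Myh1*, *Myh2*, *Myh4*, *Mb* and *Tnnc2* no more than 0.531 CPM. *Cox6a2* overlaps *Itgad* on the opposite strand, which was at 1.18 CPM at most. The enterocyte list summed at 7 days to 19210 to 35704 CPM in control mice and 4731 to 7001 CPM in knockout mice. The part of these lists in the changes of *Cox6a2* and *Cox7a1* was not tested.

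Of the other isoform pairs, *Cox6b2*, a testis form, fell at 7 days from 6.26, 7.75 and 13.9 CPM to 4.17, 4.98 and 7.61 CPM, with overlap (-0.67, SE 0.23, adjusted p = 0.0255). This call was lost without knockout mouse 3 or control mouse 3 of day 7 (adjusted p = 0.0536 and 0.0815). The common form *Cox6b1* was at -0.07 (SE 0.13, adjusted p = 0.715). *Cox4i1* was higher (0.30, SE 0.11, adjusted p = 0.0417), a call lost in 8 of the 12 fits without 1 mouse (adjusted p up to 0.14). Its partner *Cox4i2*, a lung form, was at no more than 3.53 CPM in any mouse and did not pass (0.87, SE 0.48, adjusted p = 0.167). *Cox8a* (0.17, SE 0.15) and *Cox7b* (-0.11, SE 0.16) did not pass. *Cox8b* summed to 16 counts in control mice and 5 in knockout mice at 7 days and did not pass. *Cox7b2* and *Cox8c* had 1 count each over all 26 libraries.

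Of the 10 assembly factors of complex IV, 6 rose at 7 days, 1 fell and 3 did not pass, beside 19.7% of all genes tested that were higher and 18.8% that were lower. *Cox7a2l*, classed here as a supercomplex assembly factor, rose from 57.0, 67.6 and 76.2 CPM to 135, 157 and 170 CPM at 7 days. The groups did not overlap, and the change was 1.24 (SE 0.10, adjusted p = 2.18e-08). *Cox17* (chr16:38346991-38352763, plus strand), the copper chaperone of complex IV, rose from 110, 157 and 318 CPM to 330, 400 and 486 CPM, with no overlap (1.11, SE 0.24, adjusted p = 0.00112). Its exons overlap those of Gm21987, which went from 29.5 to 154 CPM in control mice to 103 to 226 CPM in knockout mice, and reads on both were divided. *Cox10*, which makes haem O on the way to haem A, rose from 48.6, 55.9 and 61.2 CPM to 64.1, 84.5 and 97.9 CPM (0.63, SE 0.11, adjusted p = 8.86e-05), again with no overlap. *Cox18* (0.96), *Cox14* (0.53) and *Cox19* (0.32), named after their values were seen, were the other factors called higher. The 1 that fell was *Cox20*, a chaperone of subunit 2, from 31.3, 37.1 and 42.6 CPM to 24.6, 25.2 and 29.4 CPM (-0.47, SE 0.10, adjusted p = 0.00127), with no overlap. Exons of *Cox20* overlap those of *Hnrnpu*, and exons of *Cox10* those of 9630013K17Rik, each on the opposite strand. Reads on both genes of such a pair were divided. None of the 10 passed at 3 days.

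In complex V, 4 of 18 nuclear subunits were lower at 7 days and 1 was higher, beside 18.8% and 19.7% of all genes tested. *Atp5k*, subunit e, was at 109, 129 and 141 CPM in control mice and at 45.8, 55.6 and 64.1 CPM in knockout mice at 7 days (-1.18, SE 0.11, adjusted p = 5.77e-08). *Atp5j2*, subunit f, fell from 510, 540 and 634 to 330, 444 and 498 CPM (-0.33, SE 0.11, adjusted p = 0.0263), a call lost without knockout mouse 4 of day 7 (adjusted p = 0.0521). All knockout mice lay below all control mice for both genes. Of the other small membrane subunits, named after their values were seen, *Atp5l* (-0.05), *Atp5mpl* (-0.15) and *Atp5md* (0.15) did not pass. *Atp5g1*, *Atp5g2* and *Atp5g3* encode the same mature subunit c of the rotor ring. *Atp5g3* fell from 2525, 3023 and 3776 CPM to 1881, 2125 and 2380 CPM (-0.52, SE 0.12, adjusted p = 0.00227), and *Atp5g1* from 3.94, 4.76 and 6.30 to 0.54, 1.46 and 3.22 CPM (-1.36, SE 0.32, adjusted p = 0.00212). For both the genotypes did not overlap. *Atp5g2* rose from 0.578, 1.10 and 1.73 to 1.14, 1.99 and 3.65 CPM, with overlap (0.98, SE 0.32, adjusted p = 0.0234), on 37 and 76 counts in all. That call was lost in 3 of the 12 fits without 1 mouse (adjusted p up to 0.0853), and 2 other genes hold a near-identical stretch of its 3′ end. The subunits of the catalytic head and central stalk, *Atp5a1* (0.12), *Atp5b* (0.24), *Atp5c1* (0.05), *Atp5d* (0.16) and *Atp5e* (-0.18), did not pass and were named after their values were seen. Both genes of the table that share the symbol *Atp5o* did not pass either. At 3 days none of the 18 members of complex V tested passed.

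The knockout effect differed between 7 and 3 days for 5 of 66 members tested, beside 18.4% of all genes tested. It was higher at 7 days for 3, beside 8.64% of the 19604 genes, and lower for 2, beside 9.74%. Beside *mt-Co1*, these were *Cox7a2l* (difference 1.02, SE 0.17, adjusted p = 5.43e-05), *Uqcc2* (0.70, SE 0.23, adjusted p = 0.0357), *Cox7a1* (-2.79, SE 0.54, adjusted p = 0.000378) and *Atp5k* (-1.0, SE 0.22, adjusted p = 0.00121). For *Cox7a1* the control mice themselves rose between the days, by 1.90 (SE 0.37, adjusted p = 0.00067), and for *Atp5k* by 0.67 (SE 0.15, adjusted p = 0.00192), whereas those of *Cox7a2l* (0.01, SE 0.11) and *Uqcc2* (0.16, SE 0.14) did not pass. The call of *Uqcc2* was lost in 8 of 26 fits without 1 mouse (adjusted p up to 0.0842) and without the 8 libraries with stomach or pancreatic transcripts (0.55, adjusted p = 0.202). *Cox6a2* rose on both days by a like amount, with a difference of 0.26 (SE 0.74, adjusted p = 0.862).

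The promoters of the 4 nuclear genes whose effect differed between the days are printed because these are the nuclear members the comparison of the days turns on. On GRCm38 the genes lie at chr17:83501918-83517330 (*Cox7a2l*, minus strand), chr17:27122663-27133916 (*Uqcc2*, minus strand), chr7:30184144-30186078 (*Cox7a1*, plus strand) and chr5:108433244-108434448 (*Atp5k*, minus strand). The sequences are RefSeq promoters of GRCm38.p6, at most 250 bases before the start and ended where an annotated exon begins. That of *Cox7a2l* is at chr17:83514334-83514583, which lies inside the GENCODE gene, before an internal start that RefSeq uses, that of *Uqcc2* at chr17:27133917-27134141, that of *Cox7a1* at chr7:30183921-30184143 and that of *Atp5k* at chr5:108434449-108434649. Capitals mark matches to the motifs given after the sequences.
Cox7a2l: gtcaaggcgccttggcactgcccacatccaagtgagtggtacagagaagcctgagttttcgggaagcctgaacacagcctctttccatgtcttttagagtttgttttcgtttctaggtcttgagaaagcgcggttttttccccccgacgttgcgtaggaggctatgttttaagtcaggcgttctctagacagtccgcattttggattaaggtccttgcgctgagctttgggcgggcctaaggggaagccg
Uqcc2: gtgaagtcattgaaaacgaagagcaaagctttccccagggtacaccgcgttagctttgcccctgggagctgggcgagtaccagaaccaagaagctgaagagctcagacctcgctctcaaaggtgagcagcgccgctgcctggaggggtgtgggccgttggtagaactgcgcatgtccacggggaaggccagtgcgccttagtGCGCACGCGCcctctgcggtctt
Cox7a1: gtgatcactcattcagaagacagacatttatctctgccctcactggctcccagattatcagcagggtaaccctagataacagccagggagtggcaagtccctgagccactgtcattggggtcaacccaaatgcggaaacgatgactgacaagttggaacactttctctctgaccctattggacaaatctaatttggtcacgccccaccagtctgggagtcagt
Atp5k: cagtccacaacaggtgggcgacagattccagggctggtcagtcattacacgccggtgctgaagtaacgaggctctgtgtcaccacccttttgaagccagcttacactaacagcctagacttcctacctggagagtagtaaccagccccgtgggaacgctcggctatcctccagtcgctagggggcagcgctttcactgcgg
The windows of 250 bases before the start of 51 nuclear members matched by symbol were searched on both strands, beside 32851 promoters in all. Members were counted by gene, where a match in any promoter of the gene was enough, and the 32851 by promoter. The percents are thus in unlike units. The motif of NRF1, a regulator of nuclear mitochondrial genes (GCGCA and GCGC with any 1 base between them), was in 15.7% of the members and 3.74% of all promoters. The ETS motif CCGGAAG was in 27.5% and 6.91%, and the ERR motif CAAGGTCA in 5.88% and 1.33%. The motif of C/EBP-ATF response elements (TGATGNAA), read by ATF4, was in none of the 51 members and in 3.45% of all promoters. At 7 days, NRF1 matches were in 2 of 11 searched members that were higher, 2 of 11 that were lower and 4 of 28 that were not called (1 of the 51 was not tested), and ETS matches in 1, 4 and 9. *Uqcc2* and *Atp5k* each had 1 NRF1 match in the window. That of *Atp5k* runs past the printed stretch and is not in capitals. Motifs were searched separately, so matches may overlap, and a match or its absence describes these letters only.

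In control mice every member that passed the edgeR test between the days was higher at 7 days. Of 66 members tested, 50 were higher in control mice at 7 days than at 3 days and none lower, beside 36% of the 20646 genes tested that were called, 19.7% higher and 16.3% lower. By DESeq2 the counts were also 50 and 0, and 53 members had an unadjusted p under 0.05. The median change was 0.82 for the members and -0.06 over all genes. All complexes took part, with 5 of 8 members higher in complex II, 10 of 12 in complex III, 19 of 27 in complex IV and 15 of 18 in complex V, and *Cycs* rose by 1.08 (SE 0.15, adjusted p = 7.17e-05). *Sdha* was at 165, 214 and 247 CPM at 3 days and 261, 274 and 303 CPM at 7 days, and *Cox7a2* at 236, 363 and 424 and then 446, 512 and 751 CPM. The days did not overlap for either gene. *Sdhb* (1.15, SE 0.15, adjusted p = 4.03e-05) and *Uqcrfs1* (1.37, SE 0.18, adjusted p = 5.10e-05) rose by more, and *mt-Co1* by 0.46 (SE 0.12, adjusted p = 0.00647). These changes and calls use the scaling of the test (TMM), and between the days they lie above the changes in CPM. In CPM the median of *mt-Co1* was 1985 at 3 days and 2097 at 7 days, with overlap. That of *Cox7a2l* was 84.6 and then 67.6 CPM, beside a change of 0.01 in the test. *Cox7a2l*, *Uqcc2* and *Cox10* (0.27, SE 0.13, adjusted p = 0.11) did not pass. The labels give no batch, so the time after tamoxifen and any batch tied to it cannot be told apart.

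**Figure D4:**
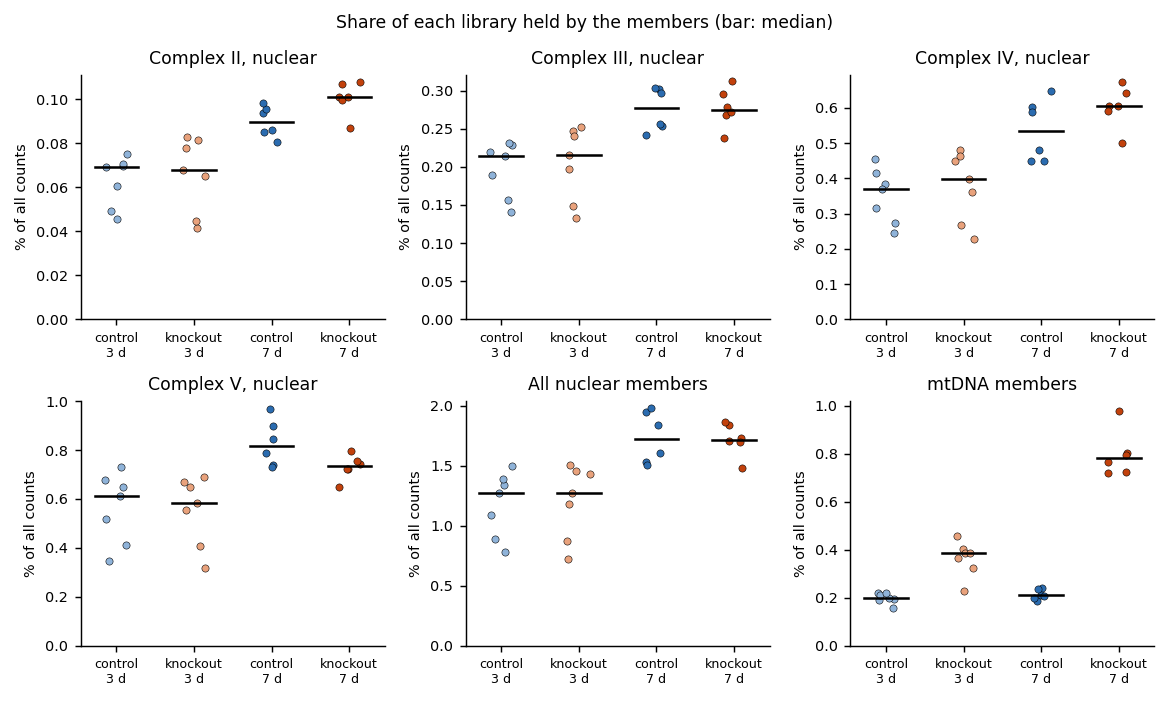
Percent of all counts of a library held by the nuclear members of each complex, by all nuclear members and by the mtDNA members, for each mouse (points) with the group median as a bar, on y axes from 0. The nuclear members held more at 7 days than at 3 days in both genotypes, with medians of 1.27% and 1.73% in control mice and 1.27% and 1.72% in knockout mice, and the mtDNA members were highest in knockout mice at 7 days.

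The levels of cell type markers in the tissue pieces moved with the day. In control mice the enterocyte list summed to 1259, 7272 and 15208 CPM (lowest, median and highest) at 3 days and to 19210, 24355 and 35704 CPM at 7 days, and all 15 of its genes were higher. All 9 genes of the smooth muscle list were lower at 7 days, from 2806 to 4714 CPM summed to 1344 to 1926 CPM. Their part in the rise of the members was not tested. Without the 8 libraries with stomach or pancreatic transcripts, 4 of them control mice of 3 days, 47 members were higher and 0 lower. With the stomach and pancreatic levels added to the model the counts were 50 and 0. In knockout mice at 7 days the enterocyte list summed to 4731, 6455 and 7001 CPM, in the range of the control mice of 3 days, while the share of the nuclear members, 1.48% to 1.87%, was in the range of 1.51% to 1.98% of control mice at 7 days but for its lowest mouse.

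**Figure D5:**
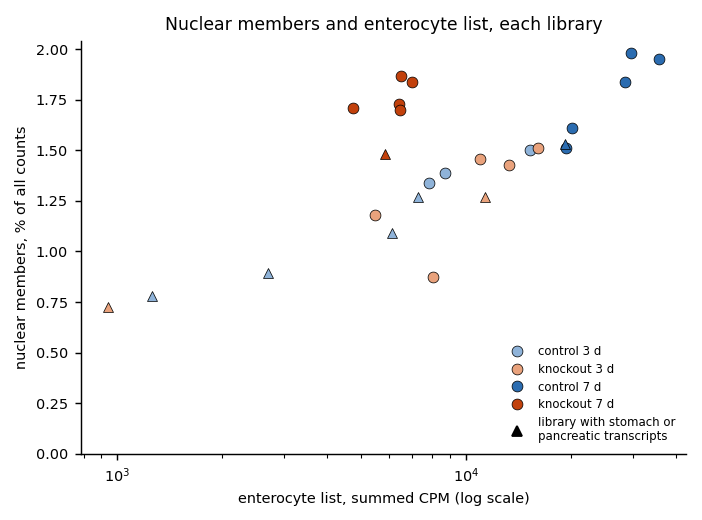
Each point is 1 library, with the summed CPM of the 15 enterocyte genes on the x axis (log scale) and the percent of counts held by the nuclear members on the y axis from 0. Triangles are the 8 libraries with stomach or pancreatic transcripts. Knockout mice at 7 days sit at 4731 to 7001 CPM and 1.48% to 1.87%, and control mice at 7 days at 19210 to 35704 CPM and 1.51% to 1.98%.

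From a list of other factors of oxidative phosphorylation (assembly, insertion, regulators and transcription of mtDNA), 49 were tested. At 7 days 14 of them were higher (28.6%) and 11 lower (22.4%), beside 19.7% and 18.8% of all genes tested. Their median change was 0.10, against -0.02 over all genes tested. The largest rises were those of *Chchd10* (2.83, SE 0.14, adjusted p = 2.09e-11), a protein of the intermembrane space, *Ndufa4l2* (1.27, SE 0.33, adjusted p = 0.00426), a paralogue of a complex IV subunit, and *Higd1a* (1.17, SE 0.23, adjusted p = 0.00059), which binds complex IV. The largest falls were those of *Sco2* (-1.69, SE 0.13, adjusted p = 8.96e-09), which carries copper to subunit 2 of complex IV, *Atpif1* (-1.11, SE 0.15, adjusted p = 1.04e-05), the inhibitor of ATP synthase, and *Oxa1l* (-0.80, SE 0.12, adjusted p = 3.13e-05), which inserts mtDNA-encoded subunits into the membrane. At 3 days 1 of the 49 was higher, *Chchd10* (1.28), and none was lower, beside 1.11% and 0.323% of all genes tested.

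Beside the members, 18 of 46 nuclear genes of complex I were higher and 4 lower at 7 days (median 0.24), and 45 of 78 mitochondrial ribosomal proteins were higher and 4 lower (median 0.40), beside 19.7% higher and 18.8% lower over all genes tested. In control mice between the days, 40 of 47 and 25 of 78 were higher and 0 and 0 lower, beside 19.7% and 16.3% over all genes tested. Whether these differ from complexes II to V was not tested.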

How the data were processed

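Libraries of the 3′ mRNA-seq kit from 26 mice were analysed, starting with the deposited estimated counts for each gene. The authors trimmed reads with Cutadapt, aligned them to GRCm38 with subread-align, and counted primary alignments of high mapping quality on exons with featureCounts, dividing reads that overlapped several genes. No strand option is stated. Of the deposited estimated counts, 95.0% were whole, and all were rounded for the models. The CPM values that the authors deposited equal counts over the library total and were used as levels. The 92 spike-in entries had 0 counts and were left out. Groups follow the labels, each library was 1 mouse, and 0 pairs of libraries were identical. The median total was 5235752 counts.

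Differential expression was tested with the two-sided quasi-likelihood test of edgeR 4.0.16 in R 4.3.3 (TMM, 1 fit per pair of groups, all 26 libraries for the interaction), after leaving out genes with zeros in most mice of either group, with Benjamini-Hochberg adjustment over all genes tested and a threshold of 0.05. SEs were taken as the log2 change over the root of the F statistic. The statistics were tested on simulated data. Copies were searched with blastn 2.17.0 in GENCODE transcripts. The genes named are the mtDNA genes, up to 3 rises and 3 falls per complex and day among members with a mean of 20 CPM or more, those that passed at 3 days or in the interaction, the isoform pairs, *Sdha*, *Cox10*, *Cycs* and the 3 largest changes each way among the other factors. The targeted gene is not reported here. The members, lists and tests were chosen with earlier results of these data known. Alternatives were DESeq2 1.42.0, its size factors, library sizes without mtDNA genes, other filters, a replicate block, covariates, a 2-fold minimum and each mouse left out. Leaving out the 8 libraries with stomach or pancreatic transcripts was chosen after seeing the data.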

Additional observations from a re-analysis of the deposited data

Results flagged for a closer look

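For 5 members the knockout effect differed between the days by the interaction test, with differences of 7 minus 3 days on the log2 scale of 1.02 for *Cox7a2l*, 0.96 for *mt-Co1*, 0.70 for *Uqcc2*, -1.0 for *Atp5k* and -2.79 for *Cox7a1*. All 5 passed at 7 days, and *mt-Co1* also passed at 3 days.

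In 5 of the 122 groups of 6 or 7 mice examined for the genes named, 1 mouse lay far from the others by Dixon's criterion, where chance gives about 1 in 20 groups. Knockout mouse 1 at 7 days had 9798 CPM of *mt-Co1*, and the next mouse 8036 CPM. Control mouse 6 at 3 days had 15901 CPM of *mt-Cytb*, and the next 13786 CPM. Control mouse 4 at 7 days had 203 CPM of *Sdhb*, and the next 253 CPM. Knockout mouse 4 at 7 days, whose library held pancreatic transcripts, had 237 CPM of *Sdha*, and the next 269 CPM. Knockout mouse 3 at 7 days had 1.33 CPM of *mt-Atp6*, and the next 0.362 CPM, on a few counts each.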

How the results depend on the processing

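With filterByExpr, which removed *Cox6a2*, 1 member was higher at 3 days, and with a 2-fold minimum 1 was. At 7 days all 26 libraries in 1 fit gave 10 higher and 6 lower, and a 2-fold minimum 4 and 3. The 2-fold minimum left 1 member with a higher effect at 7 days in the interaction and 17 higher in control mice at 7 days. Leaving out 1 mouse gave 2 to 3 higher and 0 to 0 lower at 3 days, 10 to 18 higher and 9 to 12 lower at 7 days, 2 to 4 and 2 to 3 in the interaction, and 49 to 51 and 0 to 1 between control mice. The 7-day count of rises fell to 10 without control mouse 1 and to 11 without control mouse 2 or 4 or knockout mouse 1 or 6. The 1 fall between control mice appeared without control mouse 5 of day 3. For the settings of this section the shares over all genes are not given. The counts therefore do not show whether calls over all genes moved alike. For the 50 changes of single genes that had passed, no direction turned in 422 values under other settings or 697 with 1 mouse left out, and 22 and 47 of these no longer passed. Changes that had not passed were not followed in this way. With the stomach and pancreatic levels as covariates the median of the nuclear members went from 0.20 to 0.06 at 3 days and from 0.10 to 0.02 at 7 days, and that of complex V from 0.08 to -0.03 at 7 days. Without the 8 libraries the nuclear median was 0.07 at 3 days and 0.10 at 7 days.

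The deviations of mice of the same number had correlations from -0.38 to 0.45, which does not settle whether the numbers pair mice. The main models paired no mice. The replicate block gave 2 higher and 0 lower at 3 days, 16 and 10 at 7 days, 2 and 2 in the interaction, and 50 and 0 between control mice. The floor of 3 counts per library corresponds to 0.473 to 0.806 CPM, and 4 of the 5 mtDNA members were near or under it. The calls of *Atp5g1*, *Atp5g2* and *Cox6a2* rest on levels near that floor in 1 of the groups compared. Without labels for cages, litters or batches, p-values measure only the spread between these mice.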
